A study of Mus musculus with 17 samples.

Results

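The mitochondrial genome of the mouse carries 37 annotated genes, and all 37 were present among the 55421 genes of the count tables. They were taken by their symbols, which start with mt-, and comprised 13 mRNA genes, 2 rRNA genes and 22 tRNA genes. All 37 lay on chrM of the annotation used here (GENCODE, build GRCm38). Their counts were followed across 17 RNA-seq libraries of colon tumors from C57BL/6 mice of 4 Tyk2 genotypes. Every mouse had received azoxymethane and dextran sulfate sodium (AOM/DSS), a carcinogen followed by a chemical colitis, and untreated colon was not analysed here. Tyk2wt (Tyk2+/+, n = 3) and Tyk2KO (Tyk2Δ/Δ, a deletion in every cell made with a CMV-cre deleter strain, n = 3) formed the experiment on germline loss of the kinase TYK2. Tyk2fl (Tyk2fl/fl, floxed alleles without cre, n = 7) and Tyk2DIEC (Tyk2ΔIEC, floxed alleles with Villin-cre, n = 4) formed the experiment on loss in the intestinal epithelium, in which stromal and immune cells keep TYK2. The ages of the mice were not given in the sources used here.

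The libraries held 19129696 to 21707373 counts in Tyk2wt, Tyk2KO and Tyk2DIEC and 29777763 to 35427965 counts in Tyk2fl, so sequencing depth separated the Tyk2fl libraries from all others. Depth, and anything else about the sequencing of these 7 libraries, cannot be told apart from the Tyk2fl genotype. The targeted gene gave no check of the labels, because its count covers the whole gene and not only the floxed part. Tyk2 stood at 57.9 to 59.5 CPM (counts per 1000000 counts on genes) in Tyk2KO against 55.2 to 56.2 in Tyk2wt, and at 50.7 to 57.1 in Tyk2DIEC against 39.7 to 55.4 in Tyk2fl. Tyk2fl libraries 1 to 3 had 40656 to 45446 counts on Xist, the RNA of the inactive X chromosome. Xist had 22 to 106 counts in Tyk2fl libraries 4 to 7 and 2 to 18 in the 10 libraries of the other groups, so the Tyk2fl group was mixed where the others were not. All 11 epithelial marker genes of the list used were detected, with a summed level of 8070 to 11972 CPM over the 17 libraries.

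The mitochondrial genome is transcribed on both strands into long precursors, from which the tRNAs are cut out and the mRNAs and rRNAs released. The mRNAs encode core subunits of the respiratory chain and of the ATP synthase, the rRNAs and tRNAs serve the ribosome of the organelle, and all other mitochondrial proteins come from nuclear genes. Most mitochondrial mRNAs carry a short poly(A) tail, the rRNA tails are shorter still, and the mature tRNAs carry none. These libraries were selected for poly(A), so counts of the RNA classes here reflect tail length as well as abundance. In colon epithelium, mitochondrial content is known to vary between crypt and surface cells. In bulk tumors, fewer cells of a type and less RNA per cell cannot be told apart.

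The ends of the mRNA genes show which of them need the tail to complete the stop codon. Below are the last 30 bases of 4 members, 5′ to 3′ on the coding strand, with the bases of the stop codon in capitals. They were read from the GENCODE transcripts of GRCm38 at chrM:6843-6872 (mt-Co1), chrM:11515-11544 (mt-Nd4), chrM:15259-15288 (mt-Cytb) and, on the minus strand, chrM:13552-13581 (mt-Nd6).
mt-Co1: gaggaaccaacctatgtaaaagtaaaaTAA
mt-Nd4: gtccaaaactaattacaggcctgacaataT
mt-Cytb: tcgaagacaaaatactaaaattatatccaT
mt-Nd6: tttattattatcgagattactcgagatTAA
The mt-Nd4, mt-Cytb and mt-Co3 genes end with 1 base of the stop codon, and the tail supplies the rest. The other 10 mRNA genes, as annotated, end with a whole stop codon. The annotated mt-Nd1 and mt-Nd2 genes share their last bases with the tRNA genes that follow, mt-Ti and mt-Tw. Where the mature mRNAs of mt-Nd1 and mt-Nd2 end was not analysed here.

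Parts of the mitochondrial genome also exist as copies in the nuclear genome, and for reads of 75 bases this bears on which members can be counted. The following windows of 75 bases, the read length, show a member beside its annotated nuclear copy, with differing bases in capitals. The mt-Co2 window (chrM:7013-7087) and its copy in Gm28661 (chr1:24615491-24615565, minus strand) were identical. The mt-Nd3 window (chrM:9459-9533) and its copy in Gm28438 (chr1:24613045-24613119, minus strand) differed at 1 base, T3C, counted from the 5′ end of the mitochondrial gene. The mt-Cytb window (chrM:14679-14753) and its copy in Gm11410 (chr4:80004523-80004597, plus strand) differed at 6 bases.
mt-Co2: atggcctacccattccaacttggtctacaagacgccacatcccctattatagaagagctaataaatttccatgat
Gm28661: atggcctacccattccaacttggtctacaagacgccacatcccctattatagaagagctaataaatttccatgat
mt-Nd3: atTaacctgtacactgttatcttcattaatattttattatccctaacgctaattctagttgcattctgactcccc
Gm28438: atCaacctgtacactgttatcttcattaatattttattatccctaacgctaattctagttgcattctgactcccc
mt-Cytb: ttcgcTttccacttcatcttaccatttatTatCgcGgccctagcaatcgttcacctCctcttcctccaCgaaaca
Gm11410: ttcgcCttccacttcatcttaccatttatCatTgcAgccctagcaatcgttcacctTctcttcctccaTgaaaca
A read that matches the nuclear and the mitochondrial genome equally well has no unique position, and the gene counter of the aligner used here (STAR) takes uniquely placed reads.

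Of the annotated copies found, which also lay on other chromosomes, 7 formed a block of pseudogenes on chr1 (24611535 to 24616197, 4663 bases, minus strand) in the order of the mitochondrial genome. It ran from Gm29216, which matched mt-Co1 at 99.8% over 483 bases, to Gm28439, which matched mt-Nd4 at 100% over 876 bases. In between lay copies of mt-Co2, mt-Atp6, mt-Co3, mt-Nd3 and mt-Nd4l. Of the 6 gaps between neighbouring copies, 5 were as long as the corresponding gaps on chrM, and the gap between the mt-Co2 and mt-Atp6 copies, where mt-Atp8 lies on chrM, was 233 bases in both. Of all 75-base windows, 99.5% in mt-Co2, 99.5% in mt-Atp6, 99.9% in mt-Co3, 97.8% in mt-Nd3 and 98.7% in mt-Nd4l had an exact match in a nuclear transcript. The share was 61.5% in mt-Nd4, 39.8% in mt-Co1, 5.71% in mt-Nd2 and 1.66% in mt-Nd5, and it was 0 in mt-Nd1, mt-Nd6, mt-Cytb and both rRNA genes. Only annotated nuclear transcripts were searched, so copies outside them were not analysed here.

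**Figure D1:**
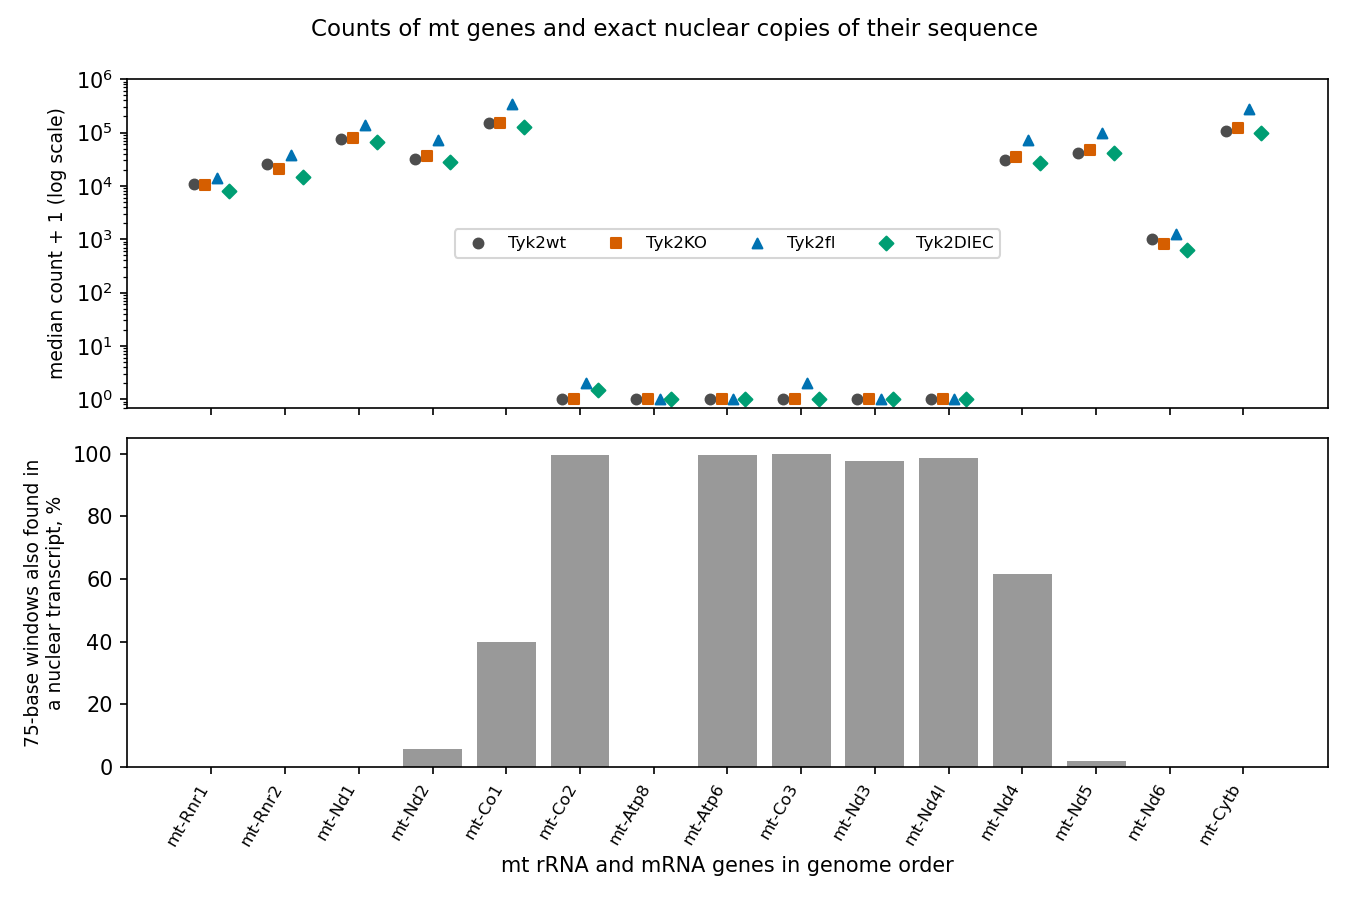
The upper panel plots the median count plus 1 per library on a log scale for the 15 rRNA and mRNA genes in genome order, with a symbol per genotype (n = 3, 3, 7 and 4). The lower panel gives the percentage of 75-base windows with an exact match in an annotated nuclear transcript. The 5 genes with 97.8% to 99.9% of windows matched, and mt-Atp8 between them, had medians near 0, while the other 9 genes exceeded 100 counts in every library.

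Most of the 37 members had few or no counts. In every library, 12 members were at 0, among them 9 tRNA genes together with mt-Atp8, mt-Nd3 and mt-Nd4l, and a count of 0 allowed up to 0.0847 to 0.157 CPM of uniquely placed reads depending on the library. This sets no limit on the level of members whose reads match a nuclear copy. A further 8 members reached at most 5 counts, and 7 reached between 6 and 86 counts in their highest library, while mt-Atp6 is described separately. The remaining 9 members exceeded 100 counts in every library and held 99.98% of all mitochondrial counts. These were the mRNA genes mt-Nd1, mt-Nd2, mt-Nd4, mt-Nd5 and mt-Nd6 (subunits of complex I), mt-Cytb (complex III) and mt-Co1 (complex IV), and the rRNA genes mt-Rnr1 and mt-Rnr2. Over all libraries the 22 tRNA genes had 1202 counts.

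mt-Atp6, a subunit of the ATP synthase, had 0 or 1 counts in 15 libraries, 250 in Tyk2fl library 2 and 1076 in Tyk2fl library 7. Gm29216, the nuclear copy of the 3′ part of mt-Co1, was high in the same libraries with 265 and 461 counts, followed by 40 in Tyk2fl library 6 and 29 in Tyk2DIEC library 2, and at most 8 elsewhere. Gm28438, the copy of mt-Nd3, was at 0 in all 6 Tyk2wt and Tyk2KO libraries, at 3 to 11 counts in Tyk2DIEC and at 15 to 81 in Tyk2fl. The 2 experiments therefore did not overlap in the counts placed on this copy, whose only difference from mt-Nd3 within the window shown is T3C. Whether reads placed on these pseudogenes came from the nuclear copies or from mitochondrial RNA that carries the same bases was not tested, so the counts say only where reads were placed. Gm10925, the copy of mt-Atp6, had at most 5 counts in any library. All results below are given with the whole Tyk2fl group.

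The mitochondrial share of all counts was 2.56%, 2.08% and 2.24% in Tyk2wt (2.29% ± 0.241, SD, n = 3) and 2.49%, 2.06% and 2.38% in Tyk2KO (2.31% ± 0.225, n = 3). It was 2.68%, 1.998%, 1.82% and 2.25% in Tyk2DIEC (2.19% ± 0.370, n = 4). In Tyk2fl it was 2.50%, 3.18%, 2.96%, 2.87%, 3.78%, 4.88% and 4.47% (3.52% ± 0.887, n = 7). Of the 7 Tyk2fl libraries, 6 lay above all 10 other libraries, and library 1 lay inside their range. The mean share in Tyk2fl was 1.53 times that in Tyk2wt, 1.52 times that in Tyk2KO and 1.61 times that in Tyk2DIEC. The SD within Tyk2fl was the widest of the 4 groups. The Wilson 95% interval of each share was at most 0.00774 percentage points to either side, so counting error was small beside the spread between tumors. The 3 Tyk2fl libraries with high Xist counts spanned 2.50% to 3.18% and the other 4 spanned 2.87% to 4.88%.

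**Figure D2:**
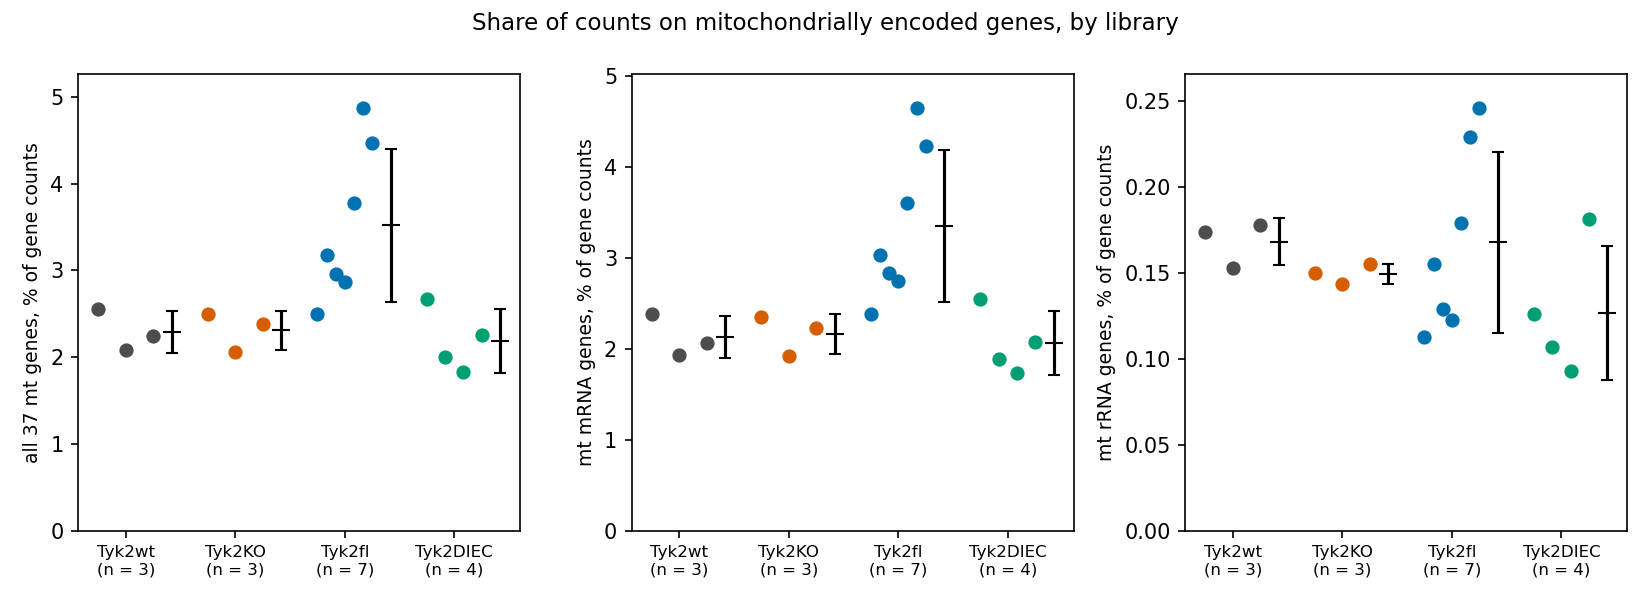
Each point is a library, and the bars give the mean and SD of a genotype, for the share of gene counts (%) on all 37 mitochondrial genes, on the mRNA genes and on the rRNA genes. In the first 2 panels, 6 of 7 Tyk2fl libraries lie above all other libraries, while the rRNA share of Tyk2fl (0.168% ± 0.0528) has the mean of Tyk2wt (0.168% ± 0.0136).

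The higher share of Tyk2fl was carried mainly by the mRNA genes. Their share averaged 3.35% in Tyk2fl against 2.13% in Tyk2wt, 2.16% in Tyk2KO and 2.06% in Tyk2DIEC. The rRNA share averaged 0.168% in Tyk2fl and Tyk2wt, 0.149% in Tyk2KO and 0.127% in Tyk2DIEC. The ratio of Tyk2fl to Tyk2wt was thus 1.58 for the mRNAs and 0.997 for the rRNAs. Against Tyk2KO these ratios were 1.55 and 1.12, and against Tyk2DIEC 1.63 and 1.32, so the rRNA share differed less but not always by nothing. Among the mRNA genes, mt-Nd6 had a ratio of 0.992 to Tyk2wt.

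Other measures separated or moved with the Tyk2fl libraries as well, and their part in the mitochondrial share was not tested. Processed pseudogenes took 0.110% to 0.124% of counts in Tyk2fl and 0.0719% to 0.0855% in the other groups, with no overlap. Malat1, an RNA retained in the nucleus, was at 829 to 1908 CPM in Tyk2fl, 789 to 851 in Tyk2wt, 609 to 896 in Tyk2KO and 853 to 1022 in Tyk2DIEC. Of 7 RNAs tested that lack a poly(A) tail or stay in the nucleus, only Xist was called in edgeR. It was higher in Tyk2fl than in Tyk2wt and lower in Tyk2DIEC than in Tyk2fl. Both calls came from Tyk2fl libraries 1 to 3, with 40656 to 45446 Xist counts against 22 to 106 in libraries 4 to 7. They therefore do not describe the whole Tyk2fl group or this class of RNAs. The median log2 fold change of the 7 was 0.77 in Tyk2fl against Tyk2wt and -0.46 in Tyk2DIEC against Tyk2fl. Unadjusted p-values of edgeR were under 0.05 for 3 and 2 of them, Xist included. Among all genes tested, 12.9% were called in the first of these comparisons and 19.9% in the second. Of the histone genes, whose mRNAs end without a tail, 0 of 25 were called in Tyk2fl against Tyk2wt. In Tyk2DIEC against Tyk2fl, 2 of 28 histone genes were higher and 1 lower. Their median log2 fold changes were 0.12 and -0.15. The TMM scaling factors of all libraries lay between 0.931 and 1.04.

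Within each group the abundant members followed the library. Tyk2fl library 1 was the lowest of its group for all 9 abundant members, library 6 was the highest for 6 of them and library 7 for mt-Rnr2, mt-Nd1 and mt-Nd6. Tyk2DIEC library 3 was the lowest for all 9 members, library 1 was the highest for all 7 mRNAs and library 4 for both rRNAs. Tyk2wt library 2 and Tyk2KO library 2 were each the lowest for 8 of the 9 members. The highest library exceeded the lowest by 1.95-fold to 2.67-fold within Tyk2fl, depending on the member.

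The levels of different members were compared per kilobase of gene. In Tyk2wt, mt-Co1 (4720 ± 568 CPM per kb, SD, n = 3) and mt-Cytb (4654 ± 652) led and did not differ beyond their spread. mt-Nd1 followed at 3655 ± 191, then mt-Nd2 at 1527 ± 265. mt-Nd5 (1108 ± 64.0) and mt-Nd4 (1083 ± 123) did not differ beyond their spread either. The large subunit rRNA mt-Rnr2 (725 ± 84.7), the small subunit rRNA mt-Rnr1 (561 ± 9.91) and mt-Nd6 (86.1 ± 14.6) were lowest. The libraries were selected for poly(A), so this order reflects tail length as well as abundance and does not rank the RNAs in the tumors. Counting only windows without a nuclear copy as length changed this order: mt-Co1 then stood at 8240 CPM per 1000 such windows and mt-Nd4 at 2974, above mt-Nd2 at 1744 and mt-Nd5 at 1174. The level of mt-Co1 against mt-Cytb (4975 on that scale) therefore depends on how the copied part is treated.

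Members were tested with edgeR's quasi-likelihood test on the counts, with Benjamini-Hochberg adjustment over all genes tested, and a member is called higher or lower at an adjusted p under 0.05. All adjusted p-values and log2 fold changes (with SE) below come from this test.

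Germline loss of TYK2 was addressed by Tyk2KO against Tyk2wt, and no mitochondrial gene passed the test. Of the 11 members with enough counts, 0 were called, where 2.80% of all 16179 genes tested were called, 2.13% as lower. DESeq2 and limma-voom also called 0. The 6 abundant mRNAs of the plus strand had log2 fold changes from -0.14 (mt-Co1) to 0.08 (mt-Nd2), with a median of 0.05 beside 0.00 for all genes tested. mt-Cytb, the cytochrome b of complex III, was at 6179, 4806 and 4986 CPM in Tyk2wt and at 5967, 5052 and 5797 CPM in Tyk2KO. The groups overlapped and the log2 difference was 0.04 (SE 0.12, adjusted p = 0.875). Unadjusted p-values were under 0.05 for 2 members. mt-Rnr2, the large subunit rRNA, was at 1213, 993 and 1236 CPM in Tyk2wt and at 938, 951 and 1068 CPM in Tyk2KO (-0.25, SE 0.10, adjusted p = 0.199). mt-Ti, the isoleucine tRNA gene, had 9, 6 and 6 counts in Tyk2wt and 11, 15 and 19 in Tyk2KO, without overlap (1.04, SE 0.36, adjusted p = 0.141).

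Loss of TYK2 in the epithelium was addressed by Tyk2DIEC against Tyk2fl, and here 6 members were lower in Tyk2DIEC and 0 higher. These were mt-Cytb, mt-Nd2, mt-Co1, mt-Nd4, mt-Nd5 and mt-Ti out of 13 tested. Among all 17668 genes tested 19.9% were called, 9.71% as lower and 10.2% as higher. The median log2 fold change of the 13 members was -0.73 beside -0.00 for all genes. Fold changes of the mRNAs were below 2-fold, and mt-Ti was the only called member past 2-fold, where 1.64% of all genes were called as lower and past 2-fold.

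mt-Cytb was at 6619, 4674, 4294 and 5312 CPM in Tyk2DIEC and at 6192 (lowest), 8461 (median) and 12191 CPM (highest) in Tyk2fl. Tyk2DIEC library 1 exceeded the lowest Tyk2fl library, and the other 3 lay below all 7. The log2 fold change was -0.78 (SE 0.19, adjusted p = 0.0144). mt-Co1, the catalytic subunit of cytochrome c oxidase, was at 8330, 6309, 5688 and 6888 CPM in Tyk2DIEC against 8008, 10200 and 15616 CPM (lowest, median, highest) in Tyk2fl. Again Tyk2DIEC library 1 alone reached into the Tyk2fl range (-0.77, SE 0.20, adjusted p = 0.0212).

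The complex I subunits gave similar values. mt-Nd2 was at 1887, 1343, 1217 and 1466 CPM in Tyk2DIEC against 1687, 2170 and 3350 CPM (lowest, median, highest) in Tyk2fl (-0.73, SE 0.19, adjusted p = 0.0198). mt-Nd4 was at 1934, 1324, 1253 and 1443 CPM against 1606, 2200 and 3536 CPM (-0.73, SE 0.21, adjusted p = 0.0297). mt-Nd5 was at 2663, 2043, 1878 and 2120 CPM against 2367, 2963 and 4692 CPM (-0.64, SE 0.19, adjusted p = 0.0318). In each of these genes Tyk2DIEC library 1 lay inside the Tyk2fl range and the other 3 libraries below it. The same library had a summed level of smooth muscle markers of 1619 CPM against 245 to 307 in the other Tyk2DIEC libraries, and of B and plasma cell markers of 1369 CPM against 243 to 452. mt-Nd1 was at 4014, 3184, 2947 and 3464 CPM against 3964, 4239 and 7964 CPM, and it missed the threshold (-0.67, SE 0.23, adjusted p = 0.0542).

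mt-Nd6, the only mRNA gene of the minus strand, and the rRNA genes did not pass the test. mt-Nd6 was at 44.8, 33.9, 26.9 and 30.8 CPM in Tyk2DIEC against 27.3, 39.1 and 72.9 CPM (lowest, median, highest) in Tyk2fl (-0.42, SE 0.25, adjusted p = 0.263). mt-Rnr1 was at 432, 387, 337 and 621 CPM against 344, 420 and 777 CPM (-0.28, SE 0.27, adjusted p = 0.492). mt-Rnr2 was at 829, 682, 590 and 1196 CPM against 786, 1139 and 1689 CPM (-0.51, SE 0.26, adjusted p = 0.185). Both rRNAs were highest in Tyk2DIEC library 4, and all 3 genes overlapped between the groups.

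The tRNA genes lay near the limit of detection. The mt-Ti gene (chrM:3706-3774) is 69 bases long, shorter than a read, and shares its first bases with the end of mt-Nd1. It is shown whole, since it was the member with the largest called fold change.
mt-Ti: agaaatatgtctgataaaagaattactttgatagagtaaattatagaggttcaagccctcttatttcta
It had 13, 5, 7 and 13 counts in Tyk2DIEC and 21, 66, 30, 51, 26, 46 and 24 counts in Tyk2fl, which is 0.261 to 0.646 CPM against 0.599 to 1.98 CPM. The log2 fold change was -1.27 (SE 0.41, adjusted p = 0.0468). Tyk2fl was sequenced deeper, so the count ranges did not overlap while the CPM ranges did. The other 3 tRNA genes tested, mt-Tq, mt-Tw and mt-Tp, had log2 fold changes of -0.71, -1.37 and -0.96 and adjusted p-values of 0.308, 0.231 and 0.188.

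The calls depended on single Tyk2DIEC libraries. Without Tyk2DIEC library 2 or without library 3 the number of lower members was 0, and without library 4 it was 3. With Tyk2fl libraries 2 and 7 left out it was 3. Over all 11 fits that left out 1 library, the log2 fold change stayed between -0.92 and -0.70 for mt-Cytb and between -0.88 and -0.68 for mt-Co1.

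**Figure D3:**
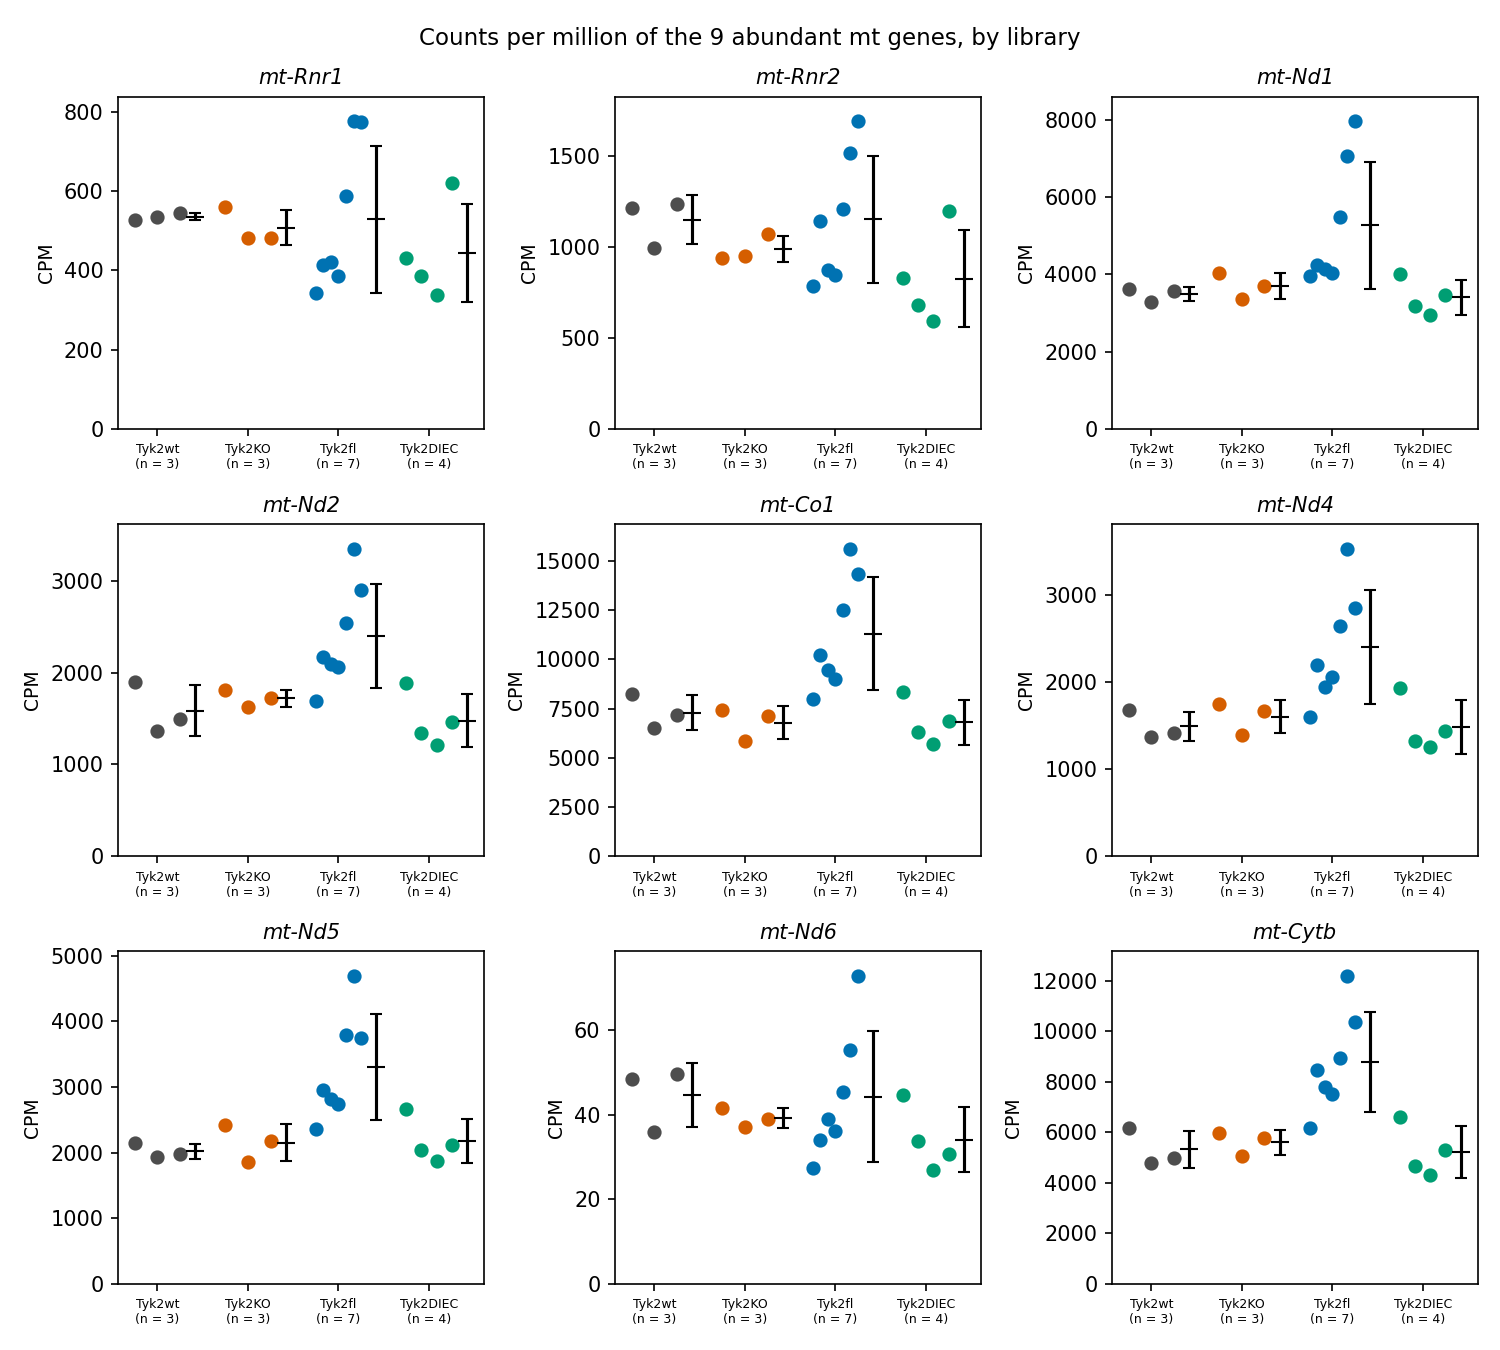
Each panel shows the CPM of an abundant member by library (points) with the mean and SD of each genotype (n = 3, 3, 7 and 4). In the 6 plus-strand mRNAs most Tyk2fl libraries lie above the others, with mt-Cytb from 6192 to 12191 CPM, while in mt-Rnr1, mt-Rnr2 and mt-Nd6 the Tyk2fl points overlap all groups.

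Tyk2fl and Tyk2wt both keep TYK2, and they were compared in a fit of all 17 libraries. Of 13 members tested, 4 were higher in Tyk2fl and 0 lower, where 12.9% of all 17252 genes were called, 5.49% as higher and 7.37% as lower. The 4 were mt-Cytb (0.71, SE 0.19, adjusted p = 0.0224), mt-Nd5 (0.70, SE 0.19, adjusted p = 0.0231), mt-Nd4 (0.68, SE 0.21, adjusted p = 0.0424) and mt-Ti (1.71, SE 0.44, adjusted p = 0.0201). The CPM ranges of mt-Cytb, mt-Nd5 and mt-Ti did not overlap between the groups, and neither did those of mt-Nd1, which was not called. How often the ranges of other genes separated was not examined. mt-Co1 (0.63, adjusted p = 0.0513), mt-Nd2 (0.59, adjusted p = 0.0536) and mt-Nd1 (0.59, adjusted p = 0.0857) missed the threshold. The plus-strand mRNAs had a median log2 fold change of 0.65, whereas mt-Rnr1 (-0.02), mt-Rnr2 (-0.00) and mt-Nd6 (-0.02) stood at about 0, each with an SE of at most 0.26. The count of 4 was 0 without Tyk2wt library 2 or 3, 2 without Tyk2wt library 1, 0 in a fit of Tyk2fl and Tyk2wt alone and 7 with only the 4 Tyk2fl libraries of low Xist counts.

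Tyk2DIEC and Tyk2wt, also from different experiments but of similar depth, gave no call among the members. Of 13 tested, 0 were called and 0 had an unadjusted p under 0.05 in edgeR, where 2.96% of all genes were called, 1.70% as lower. The plus-strand mRNAs ranged from -0.14 to 0.06 on the log2 scale. mt-Rnr2 (-0.51, adjusted p = 0.288), mt-Nd6 (-0.44, adjusted p = 0.372) and mt-Rnr1 (-0.31) had the lowest values among the abundant members. The comparison shares the Tyk2wt libraries with the previous one and with Tyk2KO against Tyk2wt. A test of the difference between the effects of epithelial and germline loss called 1 of 13 members, mt-Ti (-2.32, SE 0.64, adjusted p = 0.0351), where 7.96% of all genes were called, 2.73% in this direction. For mt-Cytb that difference was -0.83 (adjusted p = 0.0726) and for mt-Nd2 -0.82 (adjusted p = 0.0823), and 7 members had an unadjusted p under 0.05. The mt-Ti call was lost without Tyk2wt library 2 or 3, Tyk2KO library 2 or 3 or Tyk2DIEC library 2 or 3, and 3 members were called without Tyk2DIEC library 1 and 4 without Tyk2fl library 1. With only the Tyk2fl libraries of low Xist counts, 7 were called.

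**Figure D4:**
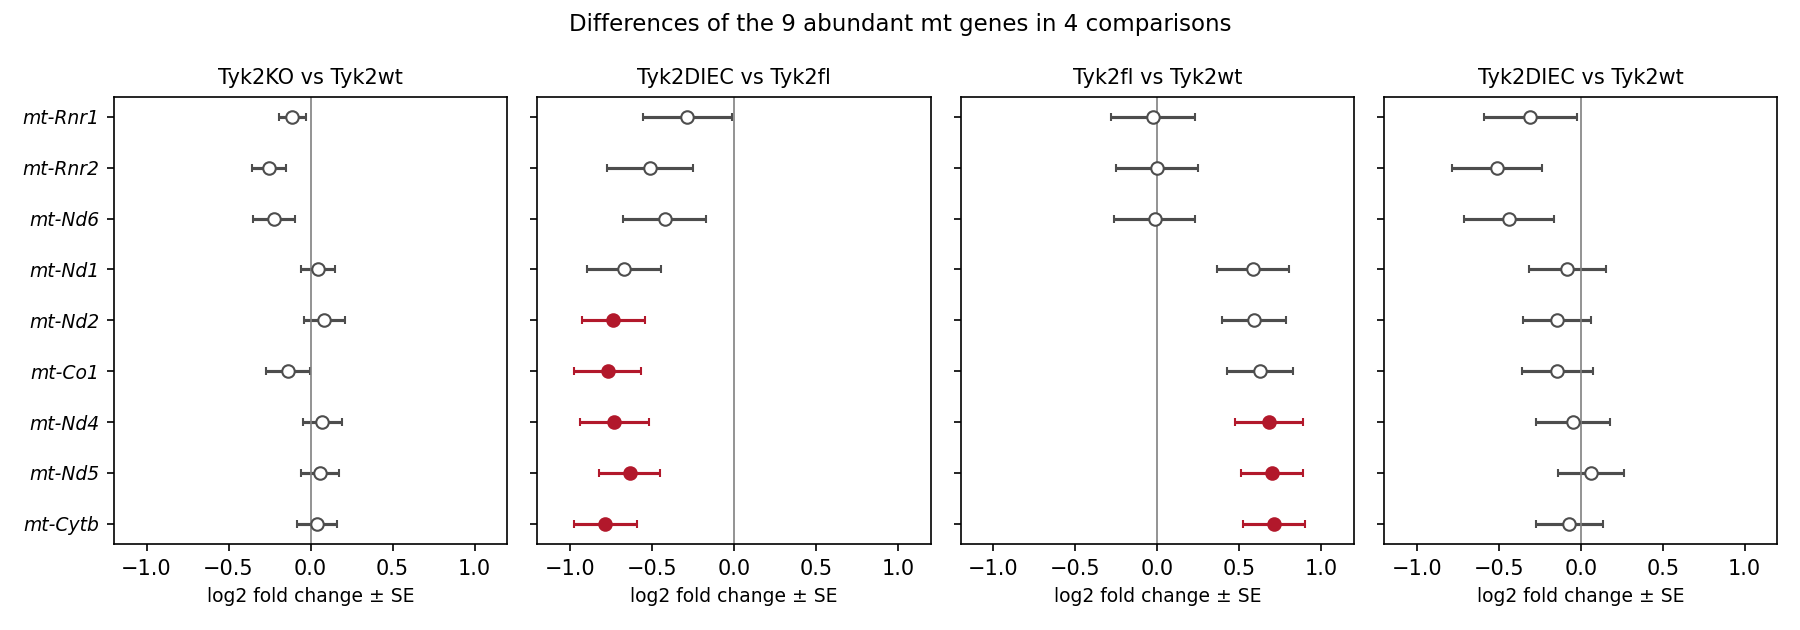
Log2 fold changes of the 9 abundant members with their SE (bars) are plotted for 4 comparisons, with filled red symbols at an adjusted p under 0.05. The 6 plus-strand mRNAs lie between -0.64 and -0.78 in Tyk2DIEC against Tyk2fl and between 0.59 and 0.71 in Tyk2fl against Tyk2wt, while no symbol is filled in the comparisons of Tyk2KO and Tyk2DIEC with Tyk2wt.

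The composition of the mitochondrial counts was described per library without a test. mt-Co1, mt-Cytb and mt-Nd1 together made up 69.2% to 73.0% of them in every library. The rRNAs took 6.81%, 7.34% and 7.94% in Tyk2wt, 6.01%, 6.96% and 6.52% in Tyk2KO, 4.71%, 5.35%, 5.08% and 8.06% in Tyk2DIEC, and 4.28% to 5.51% in Tyk2fl. All Tyk2fl libraries lay below all Tyk2wt and Tyk2KO libraries, and Tyk2DIEC library 4 was the highest of the 17. mt-Nd6 amounted to 1.86% to 2.52% of the mt-Nd5 count in Tyk2wt, 1.72% to 1.999% in Tyk2KO, 1.43% to 1.68% in Tyk2DIEC and 1.15% to 1.95% in Tyk2fl. The highest Tyk2fl value was that of library 7, and without it Tyk2fl reached at most 1.39%, below all libraries of the other groups. Both genes overlap at their ends on opposite strands, and the strand setting of the counting was not given in the sources used here.

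Among the abundant members, the shares of mt-Co1, mt-Rnr2 and mt-Nd4 did not overlap between Tyk2KO and Tyk2wt, and neither did those of the low-count genes mt-Ti and mt-Tp. mt-Co1 took 32.2%, 31.2% and 31.9% of mitochondrial counts in Tyk2wt and 29.7%, 28.4% and 29.9% in Tyk2KO. mt-Rnr2 took 4.75%, 4.77% and 5.51% in Tyk2wt and 3.76%, 4.62% and 4.49% in Tyk2KO, and mt-Nd4 took 6.60%, 6.59% and 6.33% against 7.01%, 6.77% and 7.03%. The shares of mt-Co1 and mt-Rnr2 were thus lower in all Tyk2KO libraries and that of mt-Nd4 higher. The shares of a library add up to a fixed total, so they are not independent. With so few libraries per group, ranges can also separate by chance. How often the values of other genes separated these groups was not examined. The ratio of mt-Co1 to mt-Cytb counts was 1.33, 1.35 and 1.43 in Tyk2wt and 1.24, 1.16 and 1.23 in Tyk2KO. In Tyk2DIEC it was 1.26 to 1.35 and in Tyk2fl 1.198 to 1.40, so these groups overlapped. As a level, mt-Co1 in Tyk2KO overlapped Tyk2wt (7406, 5848 and 7118 CPM against 8233, 6494 and 7150 CPM, adjusted p = 0.572).

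**Figure D5:**
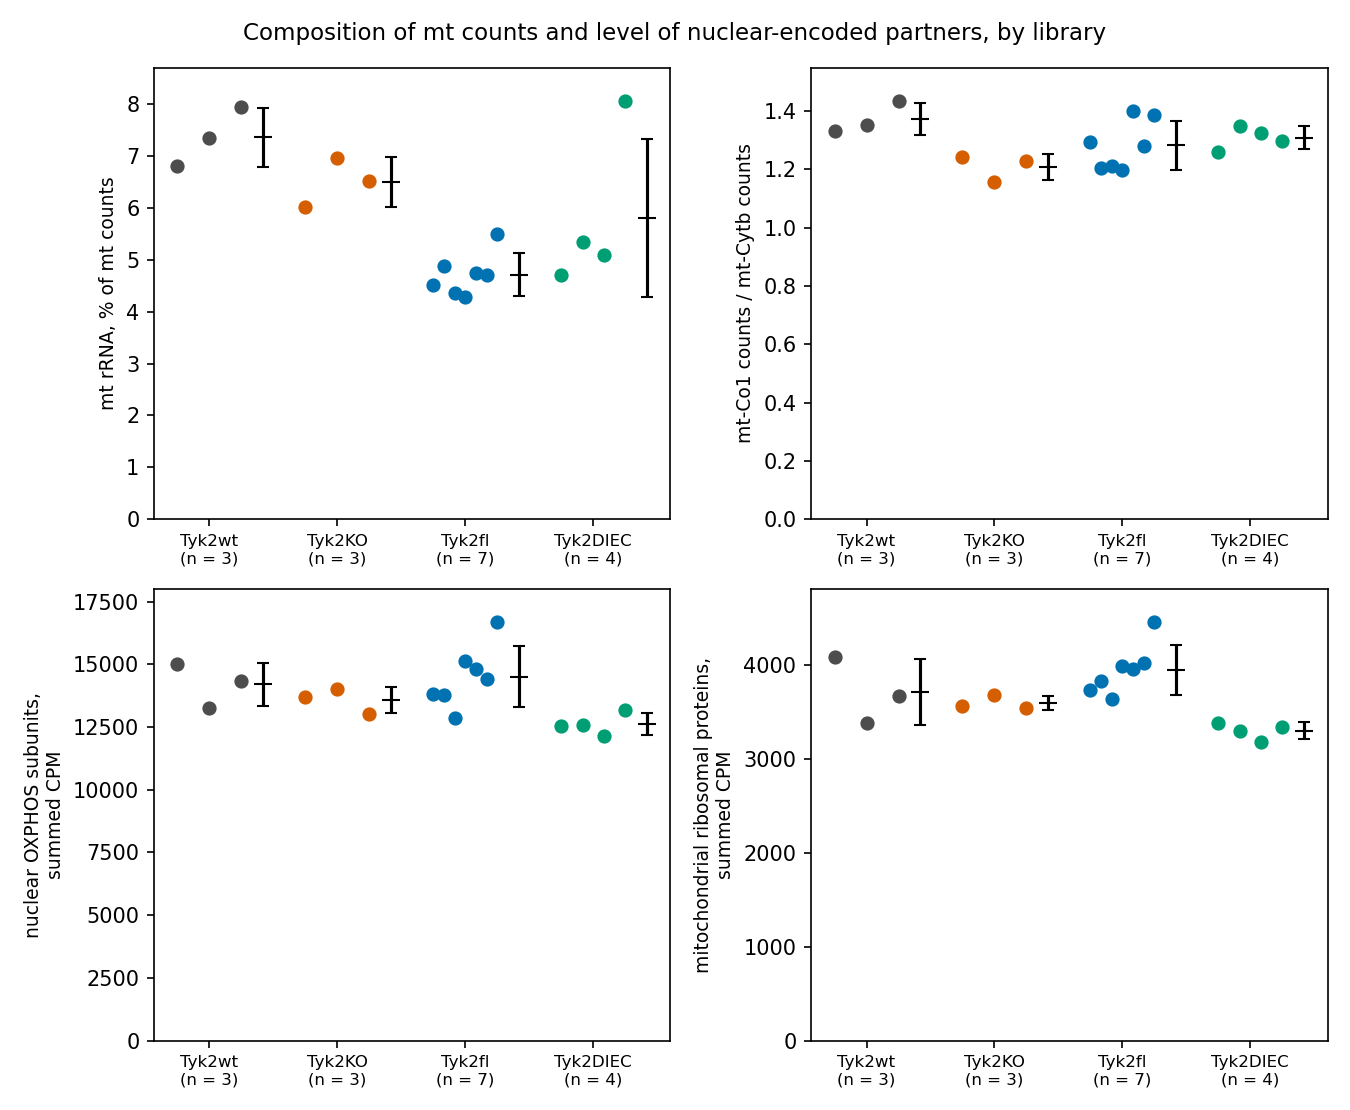
Points are libraries and bars the mean and SD of each genotype (n = 3, 3, 7 and 4). The upper panels show the rRNA share of mitochondrial counts (%) and the ratio of mt-Co1 to mt-Cytb counts, and the lower panels the summed CPM of nuclear-encoded OXPHOS subunits and of mitochondrial ribosomal proteins. All 7 Tyk2fl libraries lie at or below 5.51% rRNA, and the ribosomal protein sum of Tyk2fl (3638 to 4456 CPM) lies above that of Tyk2DIEC (3180 to 3387 CPM).

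The respiratory complexes are built from mitochondrial and nuclear gene products, so nuclear partner genes were counted in the same fits. Of 75 nuclear-encoded subunits of oxidative phosphorylation (OXPHOS), 47 were lower and 1 higher in Tyk2DIEC against Tyk2fl, with a median of -0.36, where 9.71% of all genes tested were lower and 10.2% higher. Examples were the complex I subunits Ndufc1 (-0.62, SE 0.09, adjusted p = 0.0016) and Ndufa3 (-0.65, SE 0.11, adjusted p = 0.00247) and the ATP synthase subunits Atp5g1 (-0.58, SE 0.09, adjusted p = 0.00194) and Atp5e (-0.65, SE 0.12, adjusted p = 0.00391). Of 77 mitochondrial ribosomal protein genes 40 were lower and 0 higher (median -0.28), among them Mrpl34 (-0.59, SE 0.09, adjusted p = 0.00155) and Mrpl52 (-0.75, SE 0.11, adjusted p = 0.00157). Without Tyk2DIEC library 2 or 3 the lower counts were 28 and 24 for the OXPHOS subunits and 22 and 20 for the ribosomal proteins.

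The other comparisons gave fewer calls in these lists. In Tyk2KO against Tyk2wt, 0 of 75 and 0 of 77 were called in edgeR, beside 2.80% of all genes tested. With 1 library left out, 0 to 13 OXPHOS subunits and 0 to 6 ribosomal protein genes were called. In Tyk2fl against Tyk2wt, 0 OXPHOS subunits were higher and 1 lower, whereas 7 of 77 ribosomal protein genes were higher and 0 lower. Among all genes, 5.49% were higher and 7.37% lower. Leaving out 1 library gave 0 to 7 OXPHOS calls and 1 to 13 ribosomal protein calls. In Tyk2DIEC against Tyk2wt 11 OXPHOS subunits (median -0.28) and 3 ribosomal protein genes were lower, beside 1.70% lower among all genes. In either list 0 were higher. With 1 library left out, calls in this comparison ranged from 0 to 37 for the OXPHOS subunits and from 0 to 20 for the ribosomal proteins. The summed level of the OXPHOS subunits was 13276 to 15000 CPM in Tyk2wt, 13027 to 14002 in Tyk2KO, 12869 to 16681 in Tyk2fl and 12131 to 13192 in Tyk2DIEC. On this nuclear list Tyk2fl overlapped Tyk2wt. Tyk2DIEC had the lowest median (12568 CPM) and lay below all Tyk2wt libraries, but its range overlapped those of Tyk2KO and Tyk2fl.

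Genes that act on mitochondrial RNA were called at a share below the 19.9% of all genes in Tyk2DIEC against Tyk2fl. Of 26 RNA processing and stability genes, 1 was higher in Tyk2DIEC against Tyk2fl, Lrpprc (0.29, SE 0.06, adjusted p = 0.00887), and 2 were lower, Slirp (-0.41, SE 0.10, adjusted p = 0.0127) and Rexo2 (-0.31, SE 0.06, adjusted p = 0.00617). LRPPRC and SLIRP form a complex that stabilises mitochondrial mRNAs, and REXO2 degrades short RNA fragments. Of 18 transcription and DNA maintenance genes 0 were called, and of 9 regulators of biogenesis 1 was higher, Pprc1 (0.31, SE 0.08, adjusted p = 0.022). In Tyk2KO against Tyk2wt, 0 genes of these lists were called, beside 2.80% of all genes tested.

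Some markers of other cell types were also called, and their part in the mitochondrial values was not tested. Among all genes, 9.71% were lower and 10.2% higher in Tyk2DIEC against Tyk2fl, 7.37% lower and 5.49% higher in Tyk2fl against Tyk2wt, and 2.13% lower in Tyk2KO against Tyk2wt. In Tyk2DIEC against Tyk2fl, 6 of 9 fibroblast markers (summed level 1266 to 1658 CPM against 1372 to 2273) and 2 of 7 macrophage markers were lower, 1 of 7 endothelial markers was higher, and 0 of 11 epithelial markers were called. In Tyk2fl against Tyk2wt, 4 of 8 B and plasma cell markers (415 to 1437 CPM against 1423 to 1985) and 2 of 8 T and NK cell markers (14.7 to 23.8 CPM against 24.5 to 33.2) were lower. In the same comparison 4 of 9 fibroblast markers (1372 to 2273 CPM against 1164 to 1580) and 2 of 7 endothelial markers were higher, and 0 of 11 epithelial markers were called. In Tyk2KO against Tyk2wt, 8 of 10 smooth muscle markers, 5 of 7 T and NK cell markers, 2 of 6 neutrophil markers and 1 of 9 fibroblast markers were lower. The fibroblast list as a whole went the other way in this comparison, with a median log2 fold change of 0.25. Its summed level was 1093 to 1970 CPM in Tyk2KO against 1164 to 1580 in Tyk2wt, so the ranges overlapped. No cell type marker of the lists was at 0 in all libraries.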

How the data were processed

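Raw counts per gene were deposited by the authors for each library and as 2 series tables, 1 per experiment, which held the same values. Per the labels and the study's methods, tumors were cut out of AOM/DSS-treated colons. RNA was poly(A)-selected into directional libraries, sequenced as 75 bp single-end reads and aligned with STAR 2.6.1a to GRCm38 (mm10), which also counted reads per gene. The labels speak of single tumors, a figure legend of the study speaks of pooled ones, and nothing states which libraries came from separate mice, so p-values measure the spread between these samples, which may be partly technical. Depth was 19129696 to 35427965 counts per library. The Wilson intervals and the 3-count limit for a count of 0 cover counting error only.

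Here, edgeR 4.0.16 in R 4.3.3 was used for filterByExpr (minimum count setting 10, minimum total setting 15), TMM factors and the quasi-likelihood test, with Benjamini-Hochberg adjustment over all genes tested. Each experiment was fitted alone, and comparisons across experiments used all 17 libraries. DESeq2 1.42.0, limma 3.58.1 (voom), other filters, scalings and library sets were alternatives. The procedure was run on simulated counts with planted changes of at least 2-fold, drawn separately for each gene. That run does not cover smaller changes or members that move together. Exact nuclear copies were found by searching 75-base windows and with blastn 2.17.0 in GENCODE transcripts. Shares and composition were described without a test. All 37 members could be named. Of each gene list, those named had the smallest adjusted p in Tyk2DIEC against Tyk2fl. Nuclear pseudogenes were named when they copy a member, and Gm11410 and the single pseudogenes were chosen after their values were seen. Members and lists were chosen with earlier results of these data known. Tables of differential expression in the paper were not used.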

Additional observations from a re-analysis of the deposited data

Results flagged for a closer look

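In 11 of 74 groups examined, the highest or lowest library lay apart from the rest of its group by a gap test that chance passes in about 1 of 20 groups. In Tyk2fl library 7, mt-Nd6 was 1.95% of the mt-Nd5 count (next library 1.39%), mt-Tp was at 1.02 CPM (next 0.539) and mt-Atp6 had 1076 counts (next 250). In Tyk2fl library 2, mt-Tm was at 2.16 CPM (next 0.489), mt-Tw at 2.58 CPM (next 1.11) and the nuclear mt-Nd3 copy Gm28438 had 81 counts (next 35). In Tyk2fl library 5, mt-Co1 took 33.1% of mitochondrial counts (next 32.1%).

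In Tyk2DIEC, mt-Rnr2 took 5.31% of mitochondrial counts in library 4 (next 3.41%), mt-Cytb took 24.7% in library 1 (next 23.6%), and the nuclear mt-Co1 copies stood out with 29 counts of Gm29216 in library 2 (next 3) and 41 counts of Gm13340 in library 3 (next 32). The causes were not tested.

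The effect of epithelial loss on mt-Ti differed from that of germline loss by -2.32 on the log2 scale (edgeR, adjusted p = 0.0351), on counts of 5 to 66 per library. mt-Ti was higher in 3 of 3 Tyk2KO libraries than in any Tyk2wt library, but it did not pass the test there (edgeR, adjusted p = 0.141). How often other genes separated these groups was not examined. As counts mt-Ti was lower in 4 of 4 Tyk2DIEC libraries than in any Tyk2fl library, but Tyk2fl was sequenced deeper. Its CPM ranges in Tyk2DIEC (0.261 to 0.646) and Tyk2fl (0.599 to 1.98) overlapped.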

How the results depend on the processing

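No member was called in Tyk2KO against Tyk2wt or in Tyk2DIEC against Tyk2wt under any alternative run. In Tyk2DIEC against Tyk2fl, 6 lower members became 1 with a 2-fold minimum, 3 without Tyk2fl libraries 2 and 7 (chosen after seeing the data) and 0 to 7 with 1 library left out. In Tyk2fl against Tyk2wt, 4 became 1 with a 2-fold minimum, 7 with only the Tyk2fl libraries of low Xist counts, 0 in a fit of both groups alone and 0 to 6 with 1 library left out. For the difference between experiments, 1 became 7 with the libraries of low Xist counts and 0 to 4 with 1 left out. The 48 OXPHOS calls became 0 with a 2-fold minimum and 24 to 54 with 1 library left out, and the 40 ribosomal protein calls 0 and 20 to 51. Without the rRNA genes, mt-Co1 took 34.3% (Tyk2wt), 31.4% (Tyk2KO), 33.0% (Tyk2DIEC) and 33.7% (Tyk2fl) of mitochondrial counts, against 31.8%, 29.3%, 31.1% and 32.1%. The cause was not tested where it does not follow from the setting itself.

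Replicate numbers did not pair the libraries: same-numbered libraries had correlations of -0.111 to -0.005 between Tyk2KO and Tyk2wt and of -0.366 to 0.068 between Tyk2DIEC and Tyk2fl. With the number as a replicate block, the calls were 0 in Tyk2KO against Tyk2wt and 0 members, 27 OXPHOS and 17 ribosomal protein genes in Tyk2DIEC against Tyk2fl, and the log2 fold change of mt-Rnr1 was 0.15.

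Log2 values near 0 changed sign. In Tyk2fl against Tyk2wt, the libraries of low Xist counts gave 0.27 (mt-Rnr1), 0.23 (mt-Rnr2) and 0.27 (mt-Nd6), scaling on nuclear genes gave 0.017 (mt-Rnr2) and 0.0034 (mt-Nd6), DESeq2 size factors gave 0.0043 (mt-Rnr2) and both groups alone gave 0.011 (mt-Rnr2). The mt-Tw difference between experiments was 0.011 with the libraries of low Xist counts and 0.81 without Tyk2fl libraries 2 and 7. With 1 library left out, Tyk2KO against Tyk2wt ranged from -0.033 to 0.12 (mt-Nd1), -0.010 to 0.22 (mt-Nd2), -0.0041 to 0.17 (mt-Nd4), -0.045 to 0.16 (mt-Nd5) and -0.024 to 0.16 (mt-Cytb). Tyk2fl against Tyk2wt ranged from -0.15 to 0.080 (mt-Rnr1), -0.13 to 0.10 (mt-Rnr2), -0.78 to 0.76 (mt-Tw) and -0.19 to 0.10 (mt-Nd6). Tyk2DIEC against Tyk2wt ranged from -0.18 to 0.044 (mt-Nd4), -0.031 to 0.13 (mt-Nd5), -0.19 to 0.046 (mt-Cytb) and -0.75 to 0.15 (mt-Tp), and the mt-Tw difference from -1.23 to 0.31. tRNA genes reached at most 86 counts per library, so their values are imprecise.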
